A study of Mus musculus with 6 samples.

Results

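The genes described here are the TCF/LEF transcription factors and the TLE co-repressors, the nuclear end of the Wnt pathway, in mouse embryonic stem cells. They were chosen by name: Tcf7, Tcf7l1, Tcf7l2 and Lef1 for the DNA-binding factors, and Tle1, Tle2, Tle3, Tle4, Tle5 (formerly Aes) and Tle6 for the co-repressors. Every probe set that the array's annotation gives to a listed symbol was taken. That gave 20 probe sets for 9 of the 10 genes, out of 45037 probe sets and 18193 named genes on the array. Tcf7 had no probe set under its symbol, so its signal is not analysed here. The cells were of the R1 line, infected with lentivirus and sorted for GFP. In 3 samples the virus expressed the first short hairpin RNA (shRNA) against KIAA1718, and in 3 it expressed an shRNA against luciferase (Luc), a control without a mouse target. KIAA1718 is the protein of Kdm7a, an enzyme that removes repressive methyl groups from histones. RNA was measured on Affymetrix Mouse Genome 430 2.0 arrays, 1 array per sample. Each group carried a single shRNA, so effects of its sequence on other genes cannot be told apart from effects of targeting KIAA1718. The labels leave unsaid whether replicates were infected or cultured separately, so the error behind each p-value here may be technical only.

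When Wnt ligands bind Frizzled receptors, beta-catenin is stabilised, enters the nucleus and binds TCF/LEF factors on the DNA. Without beta-catenin the same factors recruit TLE proteins, the mammalian relatives of fly Groucho, and repress their targets. In mouse embryonic stem cells Tcf7l1 is known as a repressor of genes of the pluripotency network, and beta-catenin is known to relieve that repression. Lef1 and Tcf7 are known mainly as activators downstream of Wnt, and Tcf7l2 can act either way. Tle1 to Tle4 are full-length co-repressors. Tle5 is a short family member that lacks the WD40 repeats with which the others bind many partners, and it can oppose them. Tle6 is a divergent member known for its role in the oocyte and early embryo.

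The promoter windows below show where TCF/LEF recognition letters stand near start sites of the TCF/LEF and TLE genes. They are the windows with a match, in Tcf7l2 and Lef1, beside some without one. Those without come from tested genes whose brightest probe set did not overlap between groups, Tcf7l2, Tle3 and Tle6. A further Tle6 window, also without a match, is not shown. Each runs from 250 bases before to 50 bases after a RefSeq transcript start in GRCm38.p6, 5′ to 3′ on the gene's strand, with motif matches in capitals. The motifs searched, on both strands, were CTTTGAA or CTTTGAT or CTTTGTA or CTTTGTT, of which no site can match several on the same strand. A match was held by 2 of the 16 windows of the member genes, those of Tcf7 included, against 16.9% of all 32851 RefSeq windows. Tle5 has no window there. The upstream Tcf7l2 window (chr19:55741560-55741859, plus strand) had no match, and the downstream one (chr19:55895071-55895370, plus strand) held CTTTGTT at base 237 from its 5′ end. Among the Lef1 windows the match, CTTTGTA on the opposite strand at base 104, was in the most downstream one (chr3:131156044-131156343, plus strand). The Tle3 window (chr9:61372116-61372415, plus strand) and the Tle6 window furthest upstream (chr10:81600851-81601150, minus strand) had none. A match in such a window is a description of its letters, and its absence says nothing of the factors.
Tcf7l2 upstream start: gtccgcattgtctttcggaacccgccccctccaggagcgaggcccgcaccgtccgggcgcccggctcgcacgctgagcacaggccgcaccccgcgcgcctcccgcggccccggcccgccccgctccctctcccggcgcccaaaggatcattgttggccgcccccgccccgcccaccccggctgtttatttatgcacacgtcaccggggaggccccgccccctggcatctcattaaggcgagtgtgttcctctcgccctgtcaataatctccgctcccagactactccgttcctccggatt
Tcf7l2 downstream start: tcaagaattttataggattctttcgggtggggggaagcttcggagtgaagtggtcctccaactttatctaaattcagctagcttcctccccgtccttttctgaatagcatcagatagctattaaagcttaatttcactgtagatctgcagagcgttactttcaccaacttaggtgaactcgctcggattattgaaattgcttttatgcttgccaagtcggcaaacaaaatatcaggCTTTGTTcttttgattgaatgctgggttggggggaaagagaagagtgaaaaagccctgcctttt
Lef1 most downstream start: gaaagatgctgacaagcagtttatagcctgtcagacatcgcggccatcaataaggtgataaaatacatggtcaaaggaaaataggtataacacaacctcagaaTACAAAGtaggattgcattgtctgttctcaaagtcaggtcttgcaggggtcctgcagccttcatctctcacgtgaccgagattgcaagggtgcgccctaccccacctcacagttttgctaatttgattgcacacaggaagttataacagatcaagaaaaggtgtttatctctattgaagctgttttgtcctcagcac
Tle3 start: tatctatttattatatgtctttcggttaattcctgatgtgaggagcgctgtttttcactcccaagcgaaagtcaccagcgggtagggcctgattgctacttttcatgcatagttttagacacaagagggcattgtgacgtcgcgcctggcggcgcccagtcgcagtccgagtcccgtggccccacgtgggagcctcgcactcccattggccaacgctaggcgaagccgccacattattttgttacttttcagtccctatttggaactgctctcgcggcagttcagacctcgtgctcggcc
Tle6 upstream start: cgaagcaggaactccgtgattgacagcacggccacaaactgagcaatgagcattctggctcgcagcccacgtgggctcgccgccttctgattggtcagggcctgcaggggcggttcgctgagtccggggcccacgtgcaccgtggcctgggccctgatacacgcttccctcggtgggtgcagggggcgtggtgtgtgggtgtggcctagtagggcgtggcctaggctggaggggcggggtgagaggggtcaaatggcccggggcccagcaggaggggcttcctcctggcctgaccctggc

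The values given for each array are signals after quantile normalization, which puts the arrays on a common scale. Differences are KIAA1718 shRNA1 minus Luc shRNA in log2(normalized signal + 16), so they understate the change of dim genes. A probe set counts as called when its limma adjusted p over all 27022 tested probe sets was under 0.05. The group of genes was put together with this comparison in view, Tle5 and Tcf7l2 already being known to be lower, so the members' differences are descriptions and carry no p-value. Levels of different genes are not set against each other, because probe sets differ in how well they hybridise. In a mixed population, fewer cells of a type and less RNA per cell cannot be told apart.

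Tle5 and Tcf7l2 were lower in KIAA1718 shRNA1 cells, and Lef1 leaned the other way. At their brightest probe sets Tle3 and Tle6 were lower on every KIAA1718 shRNA1 array, by smaller amounts and without a call. Of the 20 probe sets, 17 lay above the signal limit and were tested, covering 8 genes, and 2 of these were called, both lower, at the brightest probe sets of Tle5 and Tcf7l2. Over the whole array 4.84% of 12734 genes were called, 339 higher (2.66%) and 277 lower (2.18%), and with unscaled signals 298 higher and 69 lower. Of all tested probe sets 3.68% were called, 1.94% higher and 1.74% lower. Since the choice of genes used this comparison, nothing is read from the members' share. Groups did not overlap at 6 of the 17 tested probe sets, all lower in KIAA1718 shRNA1 cells, against 11.8% of all tested probe sets in that direction and 12.5% in the other. By brightest probe set the shares of all genes were 13.4% and 14.5%. The median difference was -0.21 over the 17 probe sets and 0.00256 over all tested ones.

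**Figure D1:**
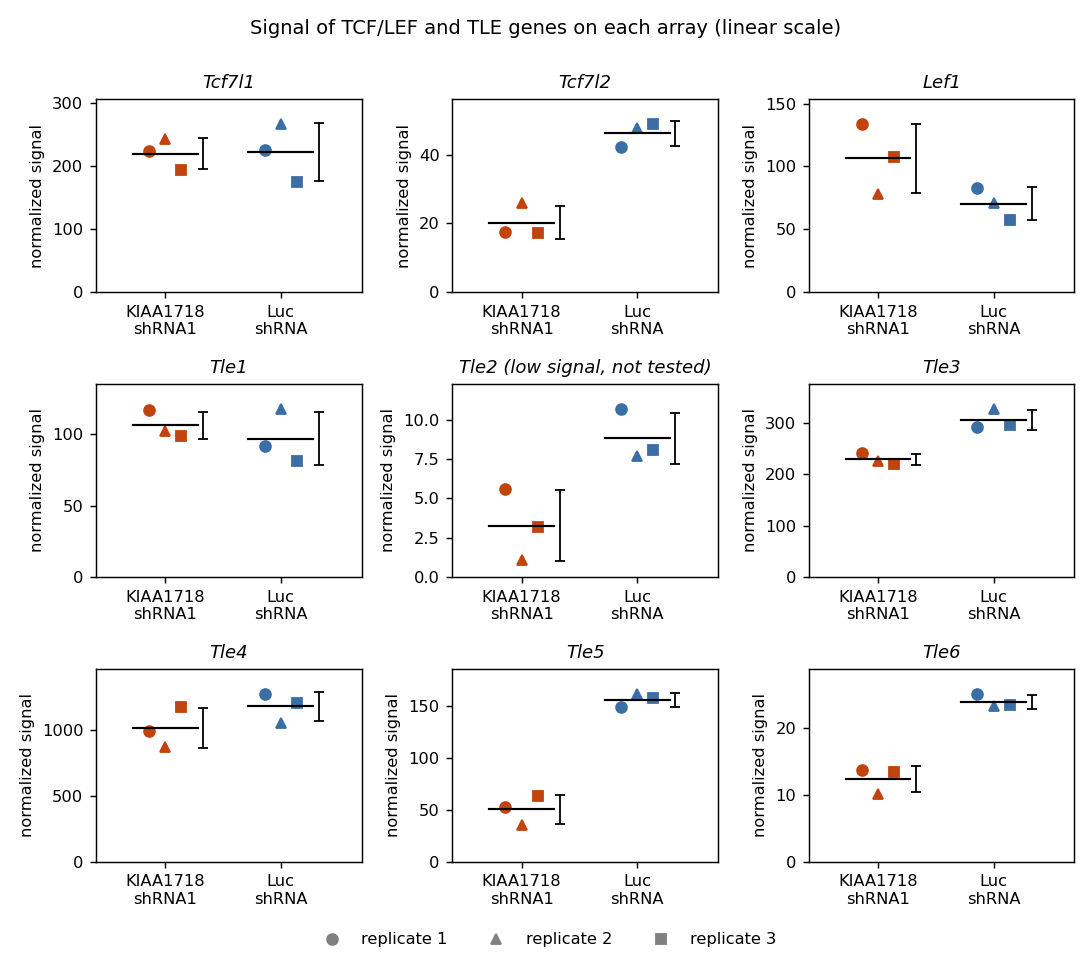
Normalized signal (linear axis from 0) of the brightest probe set of each measured member on the 3 KIAA1718 shRNA1 arrays (left) and the 3 Luc shRNA arrays (right). Lines are means, bars are SDs and symbols give the replicate number; Tle5, Tcf7l2, Tle3, Tle6 and Tle2 have no overlap between groups, and Tle2 lies below the signal limit for testing.

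Among the DNA-binding factors, Tcf7l2 was the one with the largest difference. Its brightest probe set, 1429428_at, had normalized signals of 17.6, 25.8 and 17.2 in KIAA1718 shRNA1 cells, against 42.1, 47.7 and 48.9 in Luc shRNA cells. All 3 KIAA1718 shRNA1 arrays lay below all 3 Luc shRNA arrays. The mean was 20.2 ± 4.87 in KIAA1718 shRNA1 cells and 46.2 ± 3.59 in Luc shRNA cells (SD, n = 3 each), a difference of -0.79 ± 0.14 (SE, log2 scale). The second probe set, 1429427_s_at, read 17.1, 16.8 and 17.7 in KIAA1718 shRNA1 cells and 29.4, 24.6 and 36.2 in Luc shRNA cells. It pointed the same way without overlap, at -0.47 ± 0.13 (SE), and was not called. In the deposited signals its groups overlapped. The remaining pair of Tcf7l2 probe sets had signals of 10.9 or less on every array and was too dim to test. The brightest probe set ceased to be called without KIAA1718 shRNA1 replicate 3 or Luc shRNA replicate 3, where the differences were -0.72 and -0.75.

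Tcf7l1, the factor best known as a repressor in embryonic stem cells, gave different readings at its probe sets. At the brightest, 1450117_at, signals were 223, 242 and 193 in KIAA1718 shRNA1 cells and 226, 266 and 174 in Luc shRNA cells. The ranges overlapped fully, with a difference of -0.00124 and a 95% interval of -0.32 to 0.32. At 1436207_at, signals were 177, 126 and 119 in KIAA1718 shRNA1 cells and 176, 217 and 171 in Luc shRNA cells. Here KIAA1718 shRNA1 replicates 2 and 3 were the lowest arrays while replicate 1 sat among the Luc shRNA values, and the difference was -0.39 ± 0.15 (SE) without a call.

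Lef1, itself a known target of Wnt signalling in many tissues, was the member with the largest positive difference, and it was not called. Its brightest probe set, 1454734_at, had signals of 134, 78.3 and 107 in KIAA1718 shRNA1 cells and 82.9, 71.2 and 57.1 in Luc shRNA cells. KIAA1718 shRNA1 replicates 1 and 3 were above every Luc shRNA array, and replicate 2 fell among them. The difference was 0.49 ± 0.18 (SE), and it ran from 0.33 to 0.66 when 1 array was left out. Its 95% interval, not adjusted for the number of probe sets or the choice of genes, was 0.10 to 0.87. None of the 17 alternatives called it. The dimmer probe set, 1421299_a_at, read 26.8, 11.6 and 22.6 in KIAA1718 shRNA1 cells and 14.9, 14.9 and 11.2 in Luc shRNA cells, with the same 2 arrays high. In the deposited signals, before normalization, the groups did not overlap at the brighter probe set. Those unscaled signals put the median of all genes 0.11 higher in KIAA1718 shRNA1 cells. The share of all probe sets without overlap in them was not counted.

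**Figure D2:**
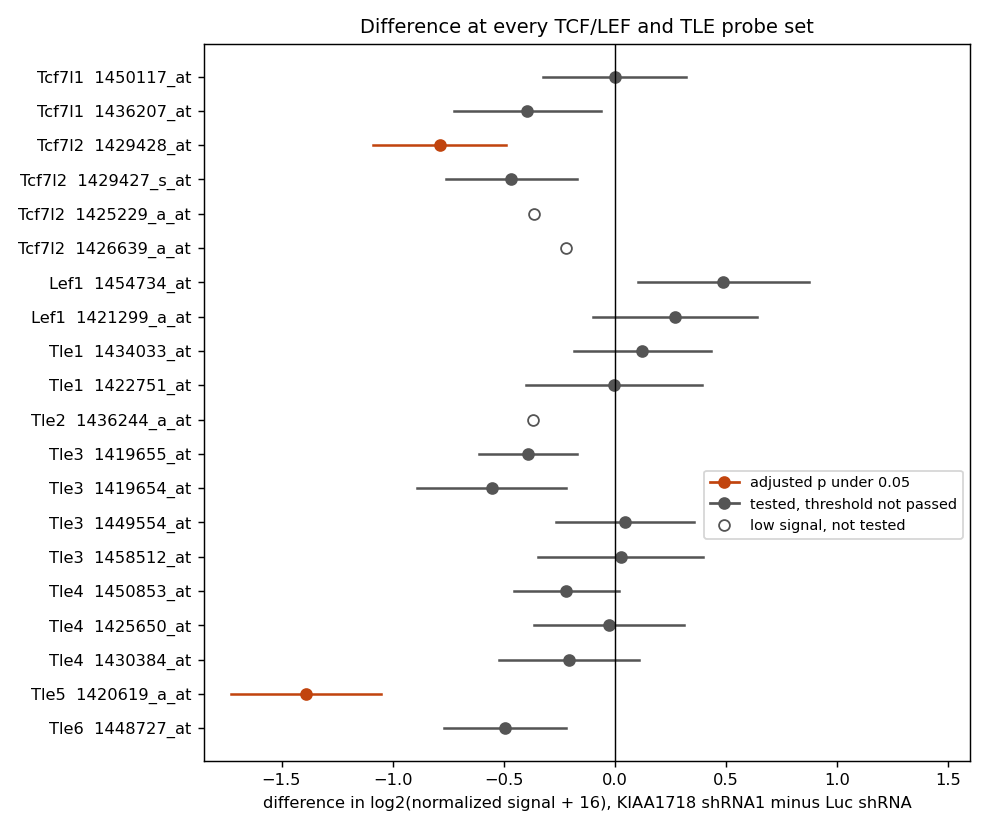
Difference in log2(normalized signal + 16), KIAA1718 shRNA1 minus Luc shRNA, at all 20 member probe sets, with 95% intervals for the 17 tested. Filled red points passed the threshold, grey ones did not, and open ones were too dim to test; the Tle5 point lies at -1.39 and the brightest Tcf7l2 point at -0.79.

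Among the co-repressors, Tle5, the short member, had the largest difference of the whole group. Its single probe set, 1420619_a_at, had signals of 53.0, 35.8 and 63.1 in KIAA1718 shRNA1 cells, against 149, 162 and 158 in Luc shRNA cells. The highest KIAA1718 shRNA1 array was far below the lowest Luc shRNA array. The mean was 50.6 ± 13.8 in KIAA1718 shRNA1 cells and 156 ± 6.77 in Luc shRNA cells (SD, n = 3 each), a ratio of 0.324. The difference was -1.39 ± 0.15 (SE) on the log2 scale, and it was called in all 17 alternatives, at -1.58 to -0.95. With the mean of the fibroblast markers as a covariate it was -1.35. No other probe set stands behind this value.

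Tle6, the divergent member, read 13.7, 10.1 and 13.4 in KIAA1718 shRNA1 cells and 25.1, 23.3 and 23.4 in Luc shRNA cells at its single probe set, 1448727_at. The groups were apart, with means of 12.4 ± 1.98 in KIAA1718 shRNA1 cells and 24.0 ± 1.02 in Luc shRNA cells (SD, n = 3 each). The ratio of means was 0.518. On the log2 scale, where the pseudocount weighs on so dim a gene, the difference was -0.49 ± 0.13 (SE) and was not called. Tle2, a full-length co-repressor, was too dim to test, at 5.58, 1.06 and 3.16 in KIAA1718 shRNA1 cells and 10.7, 7.69 and 8.09 in Luc shRNA cells.

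Tle3, also a full-length co-repressor, read 242, 226 and 221 in KIAA1718 shRNA1 cells and 293, 328 and 297 in Luc shRNA cells at its brightest probe set, 1419655_at. The groups were apart, though the step was small, with a ratio of means of 0.751 and a difference of -0.39 ± 0.10 (SE), not called. A dimmer probe set, 1419654_at, read 20.6, 11.2 and 13.2 in KIAA1718 shRNA1 cells and 23.8, 34.6 and 29.8 in Luc shRNA cells, a difference of -0.55 ± 0.15 (SE). The other two, with signals of 15.7 or less on every array, differed by 0.04 and 0.03 and overlapped. With the replicate number as a block Tle3 and Tle6 were called as well, which made 4 members, with 999 genes over the array (7.85%, and 6.15% of probe sets) against 616 without the block. Tle3 was also called with the lowest 60% of probe sets left out, and Tle6 without the intensity trend.

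Tle4 and Tle1, the remaining full-length co-repressors, overlapped between groups at every probe set after normalization. Tle4 at 1450853_at had signals of 994, 873 and 1173 in KIAA1718 shRNA1 cells and 1272, 1052 and 1204 in Luc shRNA cells, a difference of -0.22 with a 95% interval of -0.45 to 0.02. Its other probe sets differed by -0.03 and -0.21. Tle1 at 1434033_at had signals of 117, 103 and 99.0 in KIAA1718 shRNA1 cells and 92.1, 118 and 81.3 in Luc shRNA cells, a difference of 0.12 with an interval of -0.18 to 0.43. In the deposited signals the same probe set did not overlap, at 115, 105 and 112 in KIAA1718 shRNA1 cells and 81.7, 98.4 and 92.9 in Luc shRNA cells. Unscaled, the median difference of all genes was 0.11, and the share of all probe sets without overlap was not counted. The dimmer Tle1 probe set differed by -0.00383. The interval of neither brightest probe set reaches the difference seen for Tle5.

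**Figure D3:**
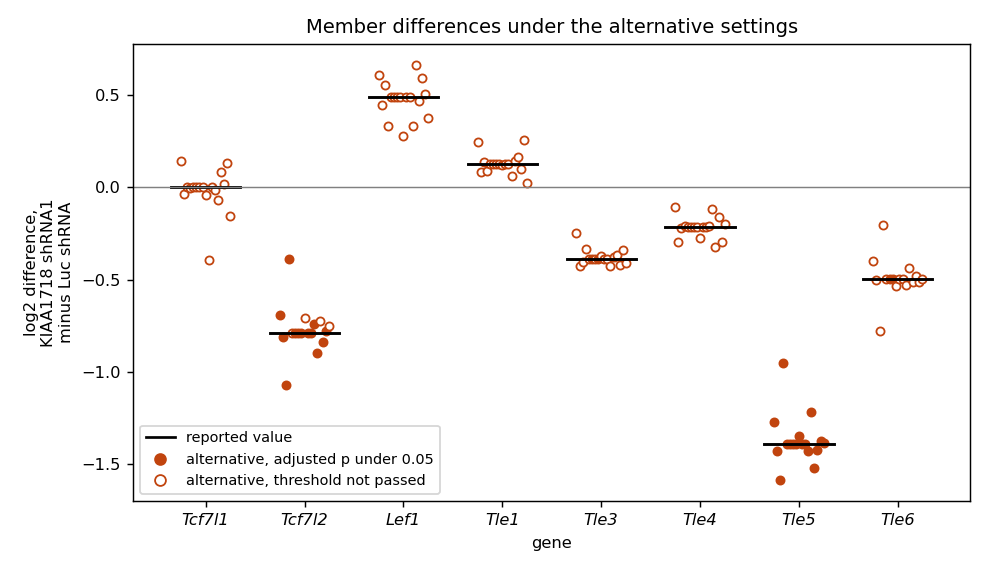
Log2 difference of each tested member, KIAA1718 shRNA1 minus Luc shRNA, as reported (line) and under each alternative setting (points, filled where the adjusted p was under 0.05). Tle5 stays between -1.58 and -0.95 and is filled throughout; Tcf7l2 runs from -1.07 to -0.39 and is open under 4 settings; Tcf7l1 lies on both sides of 0.

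Among named, protein-coding genes with a probe set, Tle5, Tle2 and Tle6 are consecutive on chromosome 10 in the RefSeq annotation of GRCm38.p6. The spans of Tle2 and Tle6 overlap. This run and the nearest 6 named, protein-coding genes with a probe set on each side were looked at after the members' values had been seen. Of those 12 neighbours 11 were tested and 1 was called: Nfic, a gene of the nuclear factor I family of transcription factors, at -0.69. Nfic ceased to be called without KIAA1718 shRNA1 replicates 2 or 3 or Luc shRNA replicates 2 or 3. Between Nfic and Tle5 the differences were -0.44 for Celf5, -0.44 for Ncln, -0.17 for S1pr4, -0.04 for Gna15 and -0.24 for Gna11, none of them called. Nfic, Celf5, Ncln and Gna11 were lower in KIAA1718 shRNA1 cells without overlap, as were 13.4% of all genes. In the deposited signals Ncln and Gna11 overlapped. On the other side of Tle6 they were 0.17 for Sirt6, 0.09 for Ankrd24, -0.03 for Zfp433, 0.06 for AU041133 and 0.13 for Zfp938. The nearest of these genes on each side of the run, Gna11 and Sirt6, had smaller differences than Tle5, a comparison that was not tested.

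**Figure D4:**
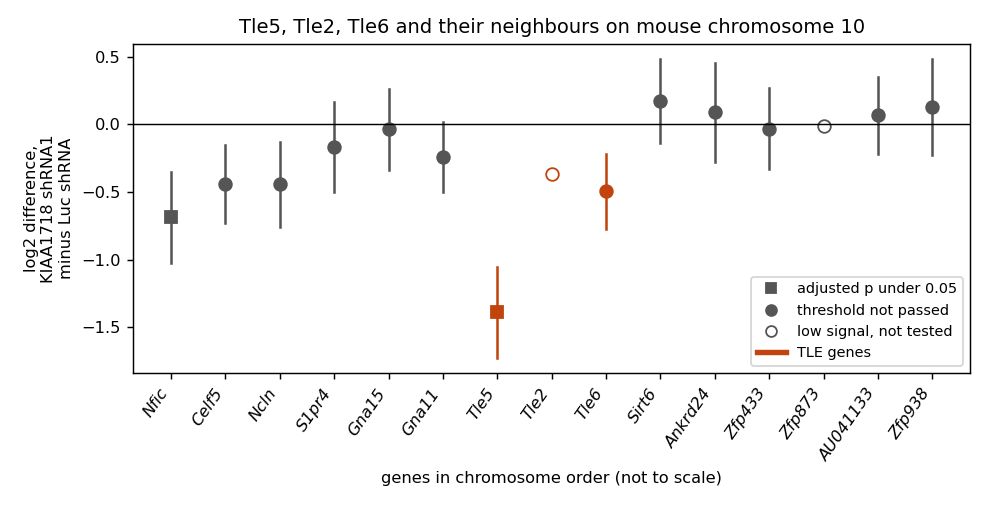
Log2 difference, KIAA1718 shRNA1 minus Luc shRNA, with 95% intervals, of Tle5, Tle2, Tle6 (red) and 12 neighbouring genes on chromosome 10, in gene order and not to distance. Tle5 lies lowest at -1.39; among the neighbours the values run from -0.69 for Nfic to 0.17 for Sirt6.

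The genes whose profile over the 6 arrays was most like that of Tle5, by root mean square difference of mean-centred log2 values, were Fzd5 (0.185), Cobl (0.193) and Esrrb (0.204). Fzd5 encodes a Frizzled receptor, Cobl an actin nucleator and Esrrb a nuclear receptor of the pluripotency network. Fzd5 read 111, 102 and 128 in KIAA1718 shRNA1 cells and 267, 266 and 250.2 in Luc shRNA cells. For Tcf7l2 the nearest were Gstp1 (0.0546), a glutathione transferase gene, Smim4 (0.0650), and Eras (0.0765), a Ras-family gene of embryonic stem cells. Gstp1 differed by -0.77, Smim4 by -0.73 and Eras by -0.71. Their likeness to Tcf7l2 in size depended on the pseudocount. With a pseudocount of 4 Tcf7l2 was at -1.07, against -0.78 for Gstp1, -0.78 for Smim4 and -0.72 for Eras. With a pseudocount of 64 Tcf7l2 was at -0.39, against -0.74, -0.57 and -0.64. The ratio of means was 0.437 for Tcf7l2, a larger fall than 0.582 for Gstp1, 0.581 for Smim4 and 0.607 for Eras. Likeness was sought among all tested genes, without the other members and genes named only by a clone, model or accession number. The members they were matched to already differ between the groups, so these genes share that difference by construction.

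Other genes of the Wnt pathway changed in both directions. The lists were set by name, with earlier results of these data known, and leave out the members. Of 76 tested genes in the 3 Wnt lists, 5 rose and 4 fell (11.8%, against 4.84% of all genes). Because earlier results were known when the lists were set, nothing is read from that share. The 9 calls became 8 without Luc shRNA replicate 1 and 3 to 5 without any other single array. Among 30 ligand and receptor genes, Fzd2 rose and Fzd5, Fzd7 and Porcn fell, with a list median of 0.00914. Fzd2 had a signal of 147 ± 8.53 in KIAA1718 shRNA1 cells and 82.4 ± 4.10 in Luc shRNA cells (SD, n = 3 each), a difference of 0.72 (limma adjusted p = 0.00609). Fzd5 fell by 1.10 (limma adjusted p = 0.000629), and Porcn, which encodes the enzyme that acylates Wnt ligands for secretion, fell by 0.96 (limma adjusted p = 0.00522). Porcn averaged 58.5 ± 12.5 in KIAA1718 shRNA1 cells and 128 ± 14.2 in Luc shRNA cells (SD, n = 3 each). Fzd7 fell by 0.72 (limma adjusted p = 0.0180), and its adjusted p was 0.102 without Luc shRNA replicate 3. The Fzd7 call was also lost with unscaled signals, without the signal limit and with the fibroblast mean as a covariate. Its groups overlapped in the deposited signals.

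Of 32 tested genes of the machinery that handles beta-catenin 2 rose and none fell, a count near the 4.84% called over all genes, with a median of 0.02: Csnk1d, a casein kinase gene, by 0.39, and Fbxw11, which encodes a ubiquitin ligase subunit that recognises phosphorylated beta-catenin, by 0.37 (limma adjusted p = 0.0433 and 0.0220). Both calls held in the absence of Luc shRNA replicate 1 and were lost without any other single array. Neither was called without probe sets whose names end in _s_at or _x_at, where other probe sets gave 0.06 for Csnk1d and 0.16 for Fbxw11. With arrays scaled to their median the differences were 0.32 and 0.27, also without a call (limma adjusted p = 0.187 and 0.276). Ctnnb1, the beta-catenin gene, had a signal of 2600 ± 105 in KIAA1718 shRNA1 cells and 2483 ± 56.4 in Luc shRNA cells (SD, n = 3 each), a difference of 0.07 (limma adjusted p = 0.579).

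Direct and feedback targets of Wnt signalling were mixed. Of 14 tested, 2 rose and 1 fell, and the median was 0.15. The transcription factor gene Sp5 had a signal of 56.4 ± 7.05 in KIAA1718 shRNA1 cells and 28.3 ± 2.31 in Luc shRNA cells (SD, n = 3 each), a rise of 0.71 (limma adjusted p = 0.0138). Its call was lost without KIAA1718 shRNA1 replicates 2 or 3 or Luc shRNA replicate 3, at 0.66 to 0.68. Sox4 rose by 0.36 (limma adjusted p = 0.0352) and Myc fell by 0.46 (limma adjusted p = 0.0328), and both lost their call when any 1 array was left out. Axin2, the scaffold gene most used as a readout of the pathway, had a signal of 41.8 ± 3.06 in KIAA1718 shRNA1 cells and 29.9 ± 7.02 in Luc shRNA cells (SD, n = 3 each), at 0.35 (limma adjusted p = 0.220). Its 95% interval was 0.03 to 0.66. All KIAA1718 shRNA1 arrays lay above all Luc shRNA arrays, as for 14.5% of all genes.

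**Figure D5:**
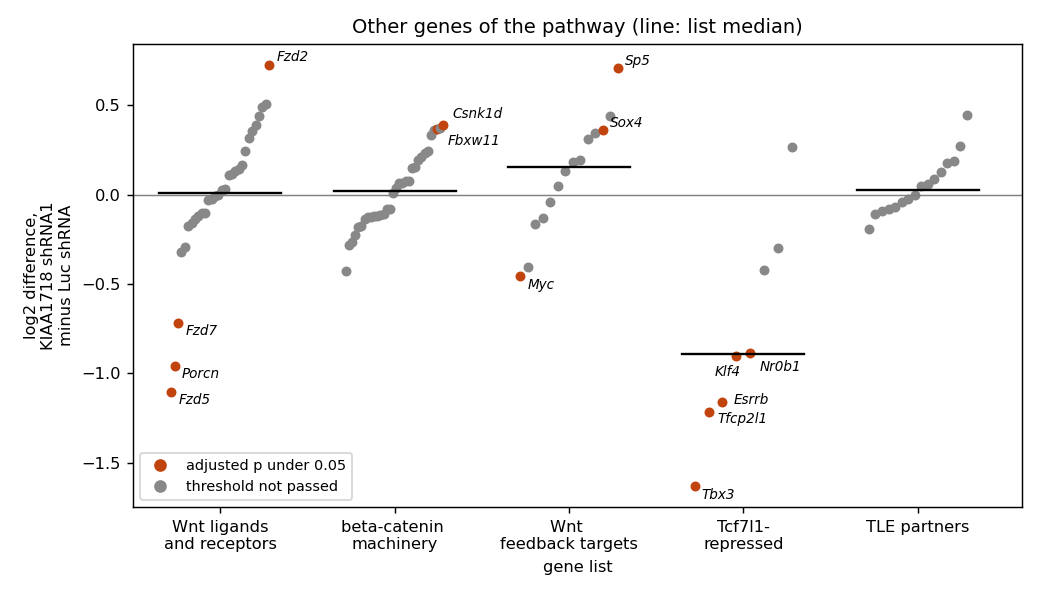
Log2 difference, KIAA1718 shRNA1 minus Luc shRNA, of every tested gene in 5 lists around the TCF/LEF and TLE genes, each list sorted by value. Named red points passed the threshold; 5 of 8 genes known as repressed by Tcf7l1 lie between -1.63 and -0.88, and no TLE partner passed.

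Most genes known as repressed by Tcf7l1 in embryonic stem cells fell. Of 8 tested 5 fell and none rose, with a median of -0.90 against -0.000315 for all genes. Tbx3, a transcription factor gene of naive cells, had a signal of 71.7 ± 15.6 in KIAA1718 shRNA1 cells and 254 ± 33.6 in Luc shRNA cells (SD, n = 3 each), a fall of 1.63 (limma adjusted p = 0.000351). Esrrb fell by 1.16, Tfcp2l1 by 1.22, Klf4 by 0.91 and Nr0b1 by 0.88 (limma adjusted p of 0.00961 or lower). Nanog at -0.42 (limma adjusted p = 0.159, or 0.0496 in the blocked fit), Klf2 at -0.30 (limma adjusted p = 0.340) and Lefty2 at 0.27 (limma adjusted p = 0.290) did not pass. Without Luc shRNA replicate 3 the number of genes that fell was 3, Tfcp2l1 and Nr0b1 being lost at adjusted p of 0.0501 and 0.0673. These genes belong to the pluripotency network under several other regulators too, and the list was put together knowing that Tbx3, Esrrb and Tfcp2l1 were lower here, so its count is no independent evidence of direction.

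Of 16 tested genes for factors known to bring TLE proteins to DNA none passed in the limma fit, 1 had an unadjusted p under 0.05, and the median was 0.02. In so short a list 0 calls is near the 4.84% of all genes. The unadjusted p under 0.05 was that of Hey1, a Notch target and repressor gene, with signals of 18.8 ± 6.11 in KIAA1718 shRNA1 cells and 9.36 ± 2.18 in Luc shRNA cells (SD, n = 3 each), at 0.44 (limma adjusted p = 0.147). Prdm1 followed at 0.27 (limma adjusted p = 0.297).

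The targeted gene Kdm7a was not called: its brightest probe set read 31.8 ± 9.69 in KIAA1718 shRNA1 cells and 38.2 ± 1.12 in Luc shRNA cells (SD, n = 3 each), at -0.20 (limma adjusted p = 0.533), so it gives no check of the labels. Arrays of the same group correlated at 0.983 to 0.988 and arrays of different groups at 0.976 to 0.985. All 8 embryonic stem cell markers were above the signal limit, and 2 of them, Fgf4 at -0.72 and Utf1 at -0.44, fell (limma adjusted p = 0.00335 and 0.0243). Their mean level was 10.04 ± 0.035 (log2) in KIAA1718 shRNA1 cells and 10.29 ± 0.042 in Luc shRNA cells (SD, n = 3 each), without overlap (exact permutation p = 0.1, two-sided, the smallest possible), and 7 of the 8 were below 0. None of 16 fibroblast markers passed (4 had an unadjusted p under 0.05, and 7 were called with the replicate block), but all were below 0. Their mean level was 7.49, 7.83 and 7.94 (log2) in KIAA1718 shRNA1 cells and 7.65, 8.49 and 8.45 in Luc shRNA cells (exact permutation p = 0.3, two-sided, a test that takes no account of replicate numbers). Within each of the 3 replicate numbers it was lower in KIAA1718 shRNA1 cells. Their summed normalized signal ran from 6415 to 8651 in KIAA1718 shRNA1 cells and from 6737 to 11293 in Luc shRNA cells. Nearest to passing were Thy1 at -0.62 and Col1a1 at -1.53 (limma adjusted p = 0.0573 and 0.0713). With the fibroblast mean as a covariate Tcf7l2 was at -0.71 without a call, Lef1 at 0.28, Tle3 at -0.37 and Tle6 at -0.54. Of 10 primitive endoderm markers 4 fell, Sox7 by 0.85, Pdgfra by 0.71, Dab2 by 0.59 and Lama1 by 0.54 (limma adjusted p = 0.0446 or lower), with a mean level of 6.06 to 6.10 in KIAA1718 shRNA1 cells and 6.39 to 6.63 in Luc shRNA cells, and their part in the members' differences was not tested. Sox7 lost its call without Luc shRNA replicate 3, Lama1 without any 1 array, Dab2 without any but Luc shRNA replicate 1, and Pdgfra and Utf1 without any but KIAA1718 shRNA1 replicate 1. No neural marker of 6 and no mesoderm marker of 4 passed in limma (1 and 2 had an unadjusted p under 0.05), the nearest being Nes at 0.67, Sox1 at -0.29, Mixl1 at 0.38 and Kdr at 0.41. The mesoderm mean was 5.34 to 5.40 in KIAA1718 shRNA1 cells and 5.06 to 5.19 in Luc shRNA cells, without overlap (exact permutation p = 0.1, two-sided).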

How the data were processed

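RNA from 6 samples, 3 with KIAA1718 shRNA1 and 3 with Luc shRNA, was measured on Mouse Genome 430 2.0 arrays; the titles gave each sample's group and number. The deposited table gives the authors' linear signal intensity per probe set. Per the submitters' processing notes GCOS was used. Its version and settings are not given in sources used here. Median deposited intensities ran from 9.58 to 13.3 between arrays, so signals were quantile normalized. After removal of 64 controls and of the dimmest 40% by mean (normalized signal under 6.65), 16 was added, log2 was taken, and limma 3.58.1 in R 4.3.3 (intensity trend, two-sided, Benjamini-Hochberg, 0.05) was run on 27022 probe sets. The number of arrays limits the precision. A gene was represented by its brightest probe set with 1 symbol; 34945 probe sets had 1, 932 several and 9160 none. Symbols were updated by Entrez number through RefSeq (GRCm38.p6), which also gave promoter windows and gene order.

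The members, lists, normalization and tests were chosen with earlier results of these data known. Named genes were all members, Kdm7a, up to 3 called members of each list with the largest change (or the 2 with the smallest p where fewer than 2 were called), and the 3 genes with the most similar profile to each called member. Ctnnb1, Axin2, Fzd7, Klf4, Nr0b1, Nanog, Klf2, Lefty2, Lama1 and the chromosome 10 neighbours were named after their values were seen. Replicate numbers are shared by the groups: deviations from group means correlated at 0.202, 0.125 and 0.130 for equal numbers and -0.150 to 0.0236 for unequal ones. Each value for equal numbers was over 0.1, a limit that is no test. Deviations cancel out within each group, so the values for equal and unequal numbers are not independent. Reading the numbers as pairs rests on the data and not on a label, and the pairing was not tested. The reported fit has no block, and the fit with the number as a block is given where it changed a call. No 2 arrays held the same values. Alternatives changed the normalization, pseudocount, filter, variance model, block, fibroblast covariate, probe set choice and each array in turn. In simulated normal data with each probe set's spread, the procedure recovered 8.96% of changes of 0.5 (log2), 64.2% of 1 and 84.8% of 1.5. Changes were planted in only 67, 67 and 66 of the 27022 probe sets, whereas 994 were called in the real data. The limit set by the adjusted p therefore differs, and the recovered shares are a rough guide. Of 106 simulated calls 1 was false. The simulated noise was independent between arrays, so that count says nothing of deviations that arrays share. A missing call at a difference of about 0.5 or less therefore says little.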

Additional observations from a re-analysis of the deposited data

How the results depend on the processing

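Tle5 kept its direction and its call under all 17 alternatives, and no member that was called changed sign. Ctnnb1 changed sign, to -0.039 with arrays scaled to their median, and Tcf7l1, near 0 as reported, ran from -0.39 to 0.14, the highest with unscaled signals. The reported counts were 616 genes, 2 members, 9 genes of the Wnt lists, 5 of the Tcf7l1-repressed list and 0 of the TLE partner and fibroblast lists. With unscaled signals, which move the median of all genes by 0.11, there were 367 genes (298 higher and 69 lower, against 339 and 277), 5 Wnt genes and 1 fibroblast marker. With median scaling 2 fibroblast markers were called, and with the lowest 60% left out 1, beside 3 members (Tle3 added). Without the low-signal filter, where 18193 genes were tested, there were 197 genes, 1 member, 3 Wnt genes and 3 of the Tcf7l1-repressed list. Without the intensity trend there were 388 genes, 3 members (Tle6 added) and 5 Wnt genes. With the replicate block there were 999 genes, 4 members and 7 fibroblast markers. With the fibroblast covariate there were 199 genes, 1 member and 3 Wnt genes. The cause of these moves was not tested. Leaving out 1 array gave 160 to 525 genes (lowest without Luc shRNA replicate 3, 198 without KIAA1718 shRNA1 replicate 3), 1 to 2 members, 3 to 8 Wnt genes, 3 to 6 genes of the Tcf7l1-repressed list and 0 to 5 fibroblast markers. With 3 arrays a group, dim members such as Tle2 and Tle6 are measured close to the signal limit, and their sizes depend on the pseudocount: Tle6 ran from -0.78 to -0.20.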
